A study of Homo sapiens with 9 samples.

Results

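The RAB genes encode small GTPases that direct membrane traffic. In the deposited count table, 61 of 25382 genes carry a symbol made of RAB, a number and at most a letter and a further number, and all 61 were taken as members, by name and not by value. RNA was measured in 9 libraries of 501mel, an established human melanoma cell line, so that all values describe a single line. All cells received a lipofected Dicer-substrate siRNA (DsiRNA) and were harvested at 24 h. The 3 controls received the DsiRNA NC1, 3 libraries received DsiRNA 13.6 against TBX3 and 3 received DsiRNA 13.8 against TBX3. The question was how gene expression differs once TBX3, a T-box transcription factor known mostly as a repressor, is knocked down.

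A RAB protein is switched on when an exchange factor loads it with GTP, and it then recruits effectors such as motors, tethers and fusion factors to one class of membrane. A GTPase-activating protein switches it off, and it is then taken from the membrane for another round. In pigment cells RAB32 and RAB38, activated by the HPS1-HPS4 complex, bring melanin enzymes from endosomes to the maturing melanosome. RAB27A then links the melanosome through melanophilin and myosin Va to actin at the cell edge.

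Levels are given as CPM (the reads of a gene divided by the TMM-scaled reads of its library, times 1e6). The libraries held 38105026 to 52272147 counted reads. Log2 fold changes, with standard errors, come from one edgeR quasi-likelihood fit to all 9 libraries, and a gene was called at an adjusted p under 0.05 over the 14731 genes tested. TBX3 stood at 88.6, 83.8 and 84.0 CPM in the controls, at 46.4, 41.0 and 39.4 CPM with 13.6 and at 36.1, 33.7 and 36.2 CPM with 13.8. The fall in log2 was by 1.02 ± 0.07 (SE, adjusted p = 1.27e-07) with 13.6 and by 1.27 ± 0.07 (adjusted p = 1.03e-08) with 13.8, and the reagents differed by 0.26 ± 0.07 (adjusted p = 0.00699). All 7 melanocyte markers were present (SOX10, MITF, PMEL, MLANA, TYR, TYRP1 and DCT), with summed levels of 13330 to 15340 CPM in controls, 13810 to 14960 CPM with 13.6 and 17290 to 18100 CPM with 13.8. The higher sum with 13.8 came mostly from TYRP1, at 3603 ± 142 CPM in controls and 7829 ± 147 CPM with 13.8 (SD, n = 3). Of the 7, 3 rose with 13.8 (TYR, TYRP1 and DCT), 3 fell (SOX10, MITF and MLANA) and PMEL was not called. With 13.6, 2 rose (SOX10 and TYR), 3 fell (MLANA, TYRP1 and DCT), and MITF and PMEL were not called. The overlapping sums of 13.6 and control thus hide changes of single markers, such as TYR at 1.09 ± 0.07 and DCT at -0.49 ± 0.10 in log2. PMEL differed between the reagents by 0.28 ± 0.08 (adjusted p = 0.0103). Summed fibroblast markers were 4.87 to 6.19, 4.63 to 5.39 and 15.9 to 19.2 CPM in the same order, and all 5 of the 7 that were tested rose with 13.8. Keratinocyte markers, nearly all from KRT10, summed to 39.4 to 46.4 CPM over the 9 libraries with KRT5 at 0. Leukocyte markers stayed at or below 2.26 CPM and endothelial markers at or below 1.28 CPM in every library. The part of these marker differences in the RAB results was not tested. In RNA from whole cultures, fewer cells of a type and less RNA per cell cannot be told apart.

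Promoter windows are shown for RAB32 and RAB27A, as melanosome members, and for RAB17 and RAB21, which changed with knockdown and hold a motif close to the start. Each holds 250 bases before to 50 bases after an annotated start, from RefSeq on GRCh38.p14, 5′ to 3′ on the gene's strand. Capitals mark the letters of motifs searched on both strands: AGGTGTGA (reverse TCACACCT), the core bound by T-box factors; CACGTG, the E-box; and CATGTG (reverse CACATG), the core of the M-box bound by MITF. TGACGTCA, the cyclic AMP response element, was searched as well. None of the motifs marked overlap. The windows lie at chr6:146543583-146543882 on the plus strand (RAB32), chr2:237590685-237590984 on the minus strand (RAB17), chr12:71754613-71754912 on the plus strand (RAB21), chr15:55237344-55237643 on the minus strand (RAB27A). RAB27A has 5 such windows, of which the one with a motif is shown. No window was available for RAB38, so its promoter was not searched.
RAB32: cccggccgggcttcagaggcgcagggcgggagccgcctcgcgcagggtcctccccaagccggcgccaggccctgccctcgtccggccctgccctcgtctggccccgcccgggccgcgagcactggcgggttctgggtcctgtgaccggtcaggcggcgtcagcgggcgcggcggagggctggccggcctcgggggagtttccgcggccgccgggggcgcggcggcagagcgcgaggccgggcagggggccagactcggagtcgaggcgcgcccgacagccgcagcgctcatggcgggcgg
RAB17: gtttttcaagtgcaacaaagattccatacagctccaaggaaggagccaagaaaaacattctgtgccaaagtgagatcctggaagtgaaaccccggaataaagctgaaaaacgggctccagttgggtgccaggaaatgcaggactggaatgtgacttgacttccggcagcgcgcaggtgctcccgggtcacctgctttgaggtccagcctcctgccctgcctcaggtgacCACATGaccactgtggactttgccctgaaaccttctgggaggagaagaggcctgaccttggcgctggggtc
RAB21: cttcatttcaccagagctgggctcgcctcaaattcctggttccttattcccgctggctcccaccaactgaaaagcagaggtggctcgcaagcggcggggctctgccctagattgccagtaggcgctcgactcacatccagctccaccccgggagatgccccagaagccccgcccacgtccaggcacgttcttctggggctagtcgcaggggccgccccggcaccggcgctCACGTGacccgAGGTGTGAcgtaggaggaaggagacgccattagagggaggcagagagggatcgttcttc
RAB27A: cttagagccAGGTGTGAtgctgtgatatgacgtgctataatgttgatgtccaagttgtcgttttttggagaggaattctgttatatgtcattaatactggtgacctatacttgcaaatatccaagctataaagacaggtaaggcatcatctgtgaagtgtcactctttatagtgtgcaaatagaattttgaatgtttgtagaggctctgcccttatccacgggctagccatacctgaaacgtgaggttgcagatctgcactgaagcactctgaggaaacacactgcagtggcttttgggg
In the RAB21 window AGGTGTGA begins 9 bases before the start and CACGTG 20 bases before it. In RAB17 CACATG begins 21 bases before the start, in RAB27A AGGTGTGA begins 241 bases before it, and the RAB32 window has no match. Of 68 windows for 48 members, 2 held AGGTGTGA (RAB21 and RAB27A), as did 0.98% of the 35116 windows of all genes. CACGTG was in 6 member windows (RAB21, RAB24, RAB29, RAB31, RAB4A and RAB5A) against 7.26% of all windows. CATGTG was in 3 (RAB17, RAB3A and RAB9B) against 11.1%, and TGACGTCA was in 1 (RAB25) against 1.85%. A match describes the letters only, and nothing follows from it, or from its absence, about binding in these cells.

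Of the 61 members, 50 passed the filter on low counts and were tested. The 11 others (RAB19, RAB25, RAB27B, RAB37, RAB40A, RAB41, RAB42, RAB44, RAB4B, RAB6C and RAB9B) had at most 56 reads over the 9 libraries, the most in RAB37. RAB4B had 0 reads, as had the readthrough genes RAB4B-EGLN2 and MIA-RAB4B that overlap it, so its entry is uncertain. RAB6C is a near copy of RAB6A, and reads of the pair may have been split or dropped in counting. RAB11B and RAB30 have antisense genes in the table, and since the strand setting of the counting is not given here, reads of each pair cannot be told apart.

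With 13.6, 18 of the 50 tested members rose and 16 fell, against 24.9% of all genes tested that rose and 25.0% that fell. Calls of at least 2-fold numbered 4 of 50 (RAB18, RAB21, RAB26 and RAB32), against 8.10% of all genes. With 13.8, 14 rose and 13 fell, against 27.5% and 27.9% of all genes, and 6 of 50 reached 2-fold in a call, against 11.5%. Between the reagents, 20 members were higher with 13.6 and 16 higher with 13.8, against 30.9% and 30.2% of all genes, and 8 of these calls were of at least 2-fold, against 14.0%. For the mean of both reagents against control, 15 members rose and 19 fell, against 23.3% and 26.9% of all genes, and the calls of at least 2-fold were RAB38 and RAB23, against 5.89% of all genes.

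The median size of a member's log2 fold change was 0.35 with 13.6, beside 0.31 over all genes tested, and 0.25 with 13.8, beside 0.34. The signed medians were near 0 for members in both: -0.07 with 13.6 and 0.00 with 13.8, beside -0.01 and 0.01 over all genes. Both comparisons share the 3 controls. In both, the median SE was 0.077 for members beside 0.096 over all genes tested. Shares of calls depend on this precision as well as on the size of changes. Of the 50 tested members, 43 were called in at least 1 of the comparisons of 13.6 with control, 13.8 with control and 13.6 with 13.8, against 79.3% of all genes tested. Opposite called changes against control together with a called difference between the reagents were found for 5 members, against 9.01% of all genes. The 7 members called in none of the 3 were RAB30, RAB39B, RAB3A, RAB3B, RAB43, RAB5C and RAB6B.

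**Figure D1:**
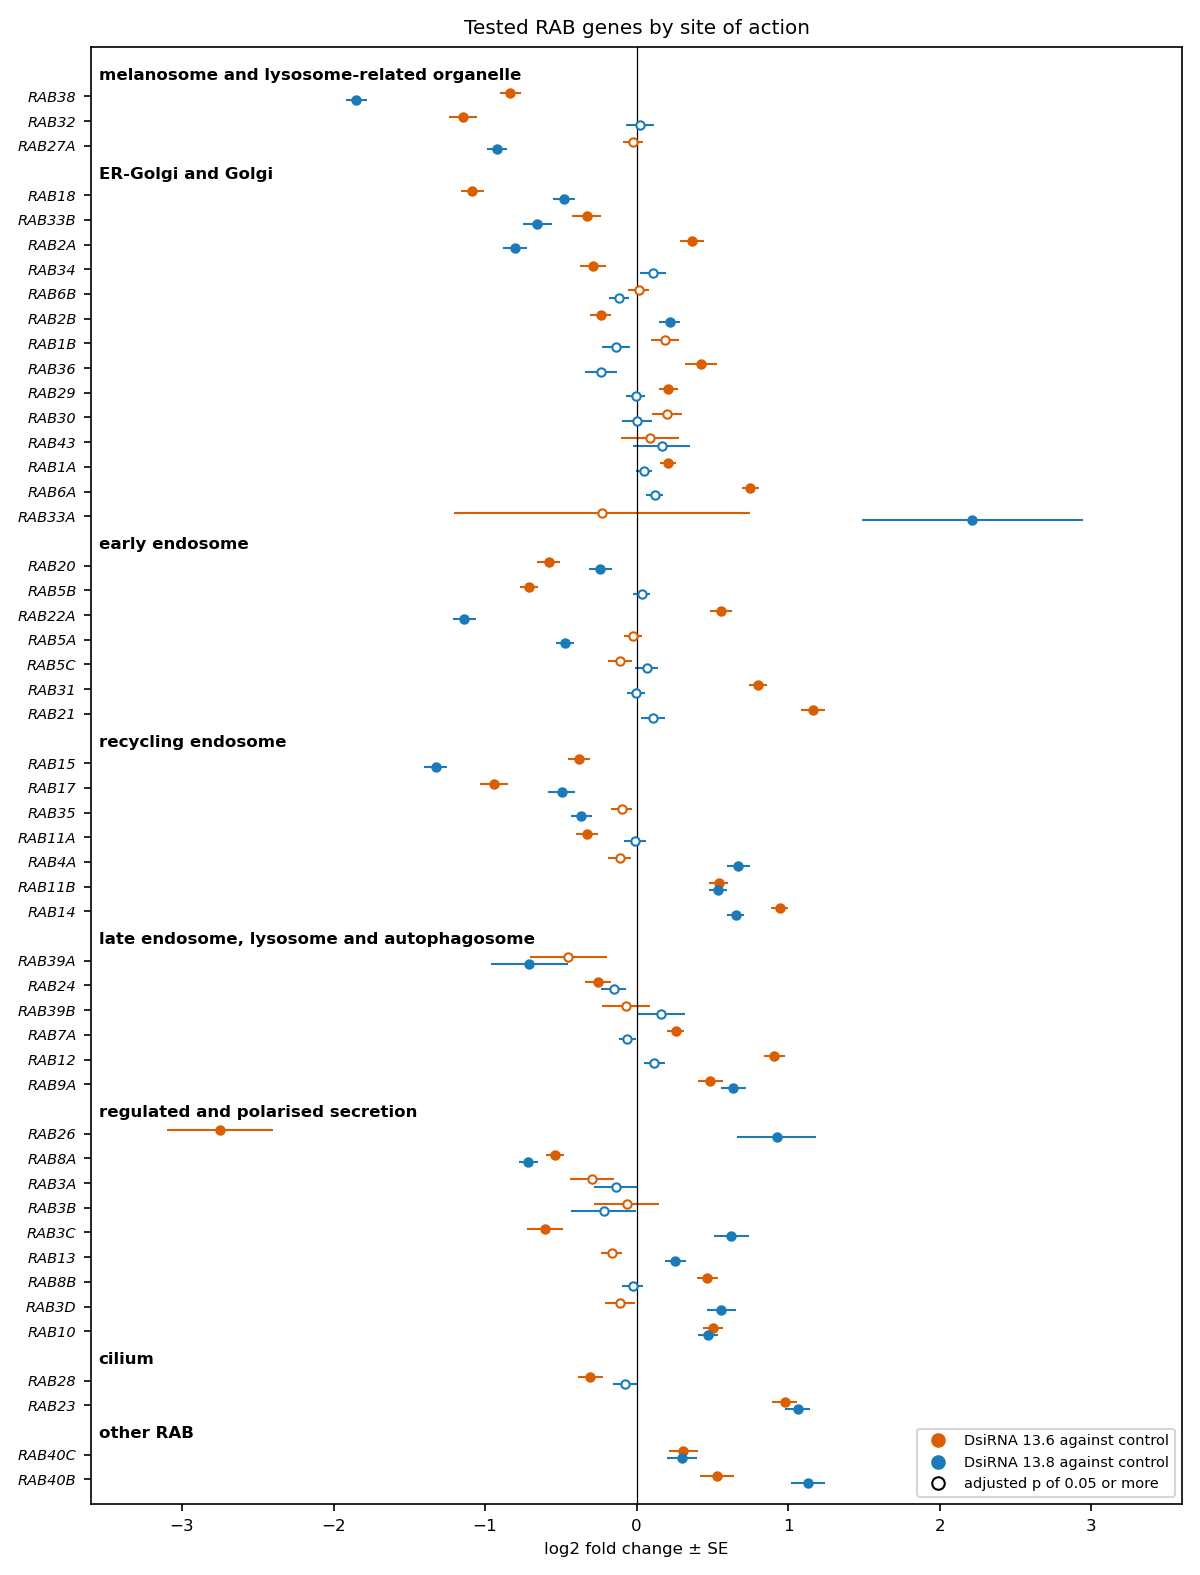
Log2 fold change against control (x axis, ± SE from the edgeR fit) of the 50 tested RAB genes, grouped by site of action, with 13.6 in orange and 13.8 in blue; filled points have an adjusted p under 0.05. RAB38 lies left of 0 with both reagents, RAB32 only with 13.6 as a filled point and RAB27A only with 13.8.

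The summed level of all 61 members was 4667 ± 214 CPM in controls (SD, n = 3), 4564 ± 77.2 CPM with 13.6 and 4104 ± 55.0 CPM with 13.8. The 4 melanosome RABs made 23.0% ± 0.8 of the RAB reads in controls, 15.1% ± 0.4 with 13.6 and 13.6% ± 0.2 with 13.8. Their summed level was 1075 ± 85.2, 687.1 ± 20.4 and 557.5 ± 4.3 CPM in the same order, with no overlap between groups. The members did not share this fall evenly. RAB38 made 548.5, 308.0 and 152.0 CPM of it, RAB32 261.6, 118.4 and 265.7 CPM, and RAB27A 264.8, 260.7 and 139.7 CPM. RABs of the endoplasmic reticulum and Golgi made 22.8% ± 0.1, 26.8% ± 0.3 and 24.1% ± 0.2 of the RAB reads. Those of late endosomes and lysosomes made 16.2% ± 0.3, 19.7% ± 0.1 and 18.0% ± 0.4. The mean summed level of the endoplasmic reticulum and Golgi class was 1063, 1224 and 990.6 CPM, with no overlap between groups. That of late endosomes and lysosomes was 755.7, 900.2 and 739.1 CPM, with the 13.8 libraries within the range of the controls. With 13.8 both shares were thus above control while neither mean level was.

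Of the 3 tested melanosome RABs, RAB38 and RAB32 fell with 13.6, and RAB38 and RAB27A fell with 13.8. RAB38, which carries tyrosinase and its relatives to melanosomes, stood at 509.4, 536.3 and 599.6 CPM in the controls, at 299.1, 304.7 and 320.3 CPM with 13.6 and at 155.8, 148.0 and 152.3 CPM with 13.8. The 3 groups did not overlap, and all 6 knockdown libraries lay below the controls. RAB38 fell to 0.562 of the control level with 13.6 (log2 -0.83 ± 0.07, adjusted p = 4.38e-07) and to 0.277 with 13.8 (log2 -1.85 ± 0.07, adjusted p = 4.8e-10). The reagents themselves differed by 1.02 ± 0.07 on the log2 scale (adjusted p = 4.18e-08).

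RAB32, its closest relative, works with RAB38 at the melanosome and also acts at mitochondria and endosomes. Its levels were 235.0, 241.7 and 308.1 CPM in the controls, 113.4, 119.7 and 122.0 CPM with 13.6, and 245.3, 274.5 and 277.3 CPM with 13.8. Libraries with 13.6 lay below all others, while those with 13.8 lay within the range of the controls. RAB32 fell with 13.6 to 0.453 of control (log2 -1.14 ± 0.09, adjusted p = 5.58e-07), and with 13.8 its log2 fold change was 0.02 ± 0.09 (adjusted p = 0.855). The difference between reagents was -1.17 ± 0.09 (adjusted p = 2.6e-07).

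RAB27A, the tether of mature melanosomes to actin, showed the other order. It stood at 267.6, 262.7 and 264.2 CPM in the controls, at 266.1, 248.0 and 267.9 CPM with 13.6 and at 152.7, 133.8 and 132.6 CPM with 13.8. The 13.6 libraries overlapped the controls, and the 13.8 libraries lay below both. RAB27A fell with 13.8 to 0.528 of control (log2 -0.92 ± 0.07, adjusted p = 8.12e-08), had a log2 fold change of -0.02 ± 0.07 with 13.6 (adjusted p = 0.795), and differed between the reagents by 0.90 ± 0.07 (adjusted p = 9.22e-08). RAB27B, its relative, was under the filter, with 22 reads over the 9 libraries.

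**Figure D2:**
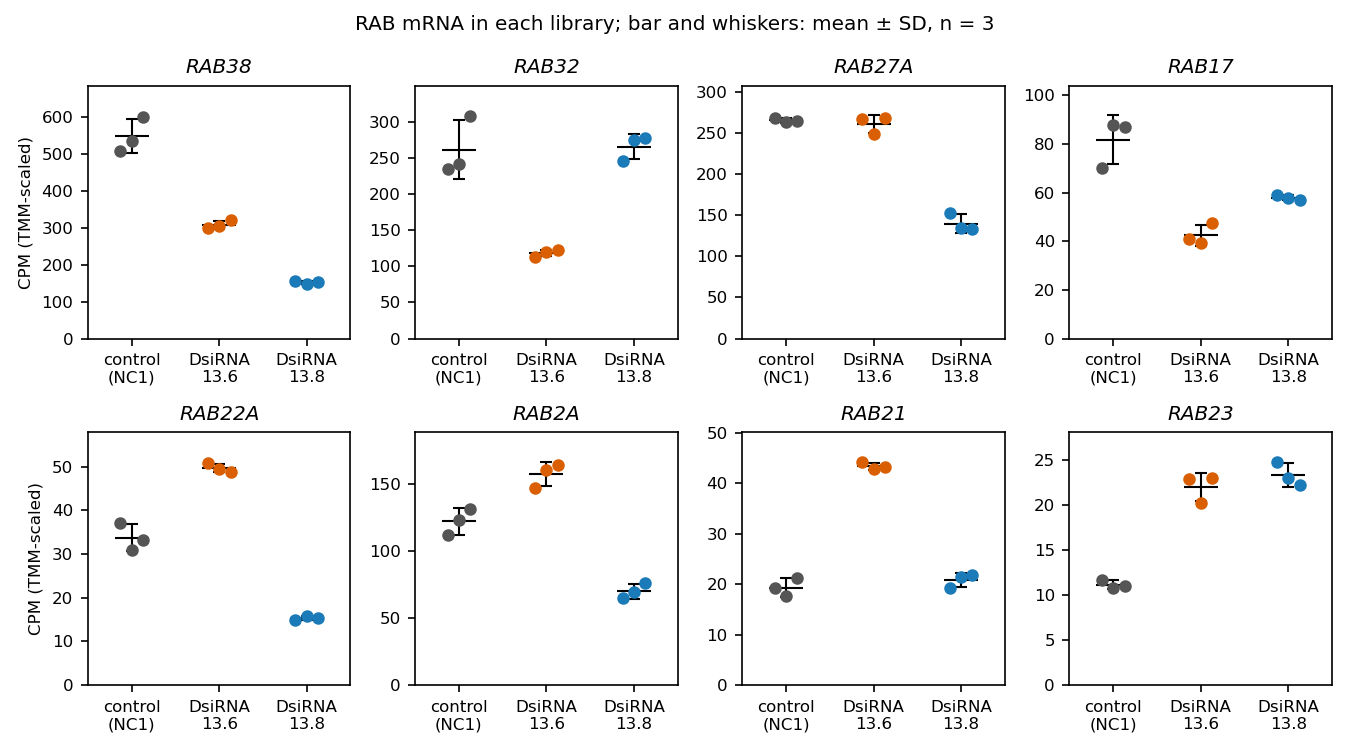
CPM (y axis, from 0) of 8 RAB genes in each of the 9 libraries, with the group mean and SD (n = 3) as bar and whiskers. RAB38 fell in order from control to 13.6 to 13.8, RAB32 was low with 13.6 alone and RAB27A low with 13.8 alone, while RAB22A and RAB2A lay above control with 13.6 and below it with 13.8.

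MITF, the transcription factor of the melanocyte lineage, was measured at 721.2, 924.8 and 729.2 CPM in the controls, 766.5, 729.5 and 806.9 CPM with 13.6, and 466.3, 362.8 and 379.5 CPM with 13.8. Its log2 fold change was -0.05 ± 0.11 with 13.6 (adjusted p = 0.759) and -0.98 ± 0.11 with 13.8 (adjusted p = 7.09e-06). Its part in the RAB values was not tested.

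Per kilobase of exon, which allows genes to be set side by side, RAB38 was the highest RAB in controls at 374 ± 31.6 CPM per kb (SD, n = 3). RAB7A, the GTPase of late endosomes, followed at 290 ± 6.9 and RAB32 at 215 ± 33.2 CPM per kb. After them came RAB5C at 157 ± 12.7, RAB1B at 122.5 ± 14.7, RAB1A at 102 ± 2.7, RAB13 at 75.6 ± 5.9 and RAB27A at 71.6 ± 0.7 CPM per kb. Among these 8, RAB13 and RAB27A are the one neighbouring pair whose mean ± SD ranges overlap. With 13.8 RAB38 stood at 103.8 ± 2.7 CPM per kb, sixth of the RABs and within the spread of RAB1A at 105 ± 3.2. With 13.6 RAB7A led at 347 ± 4.9 CPM per kb and RAB32 was sixth at 97.3 ± 3.7.

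**Figure D3:**
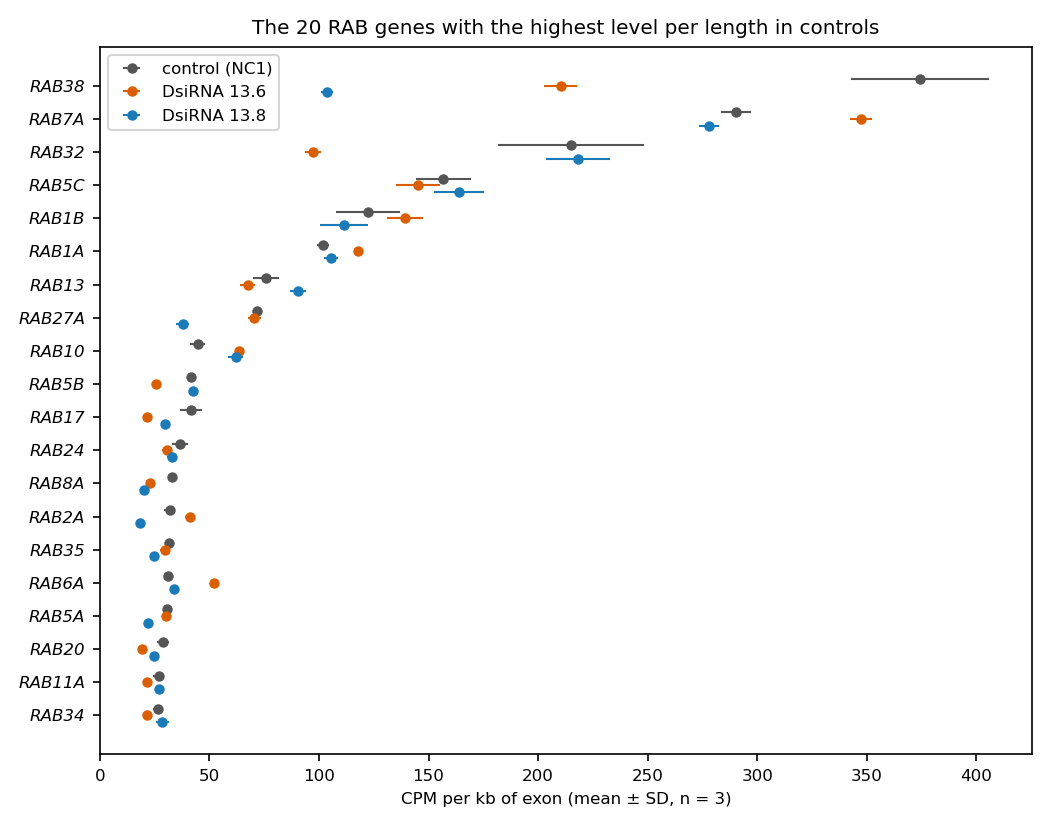
Mean CPM per kb of exon (x axis, ± SD, n = 3) of the 20 RAB genes with the highest control level, in controls (grey), 13.6 (orange) and 13.8 (blue). RAB38 leads in controls at 374 CPM per kb and stands at 103.8 with 13.8, while RAB7A leads with either DsiRNA.

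Of the 14 tested RABs of the endoplasmic reticulum and Golgi, 5 rose and 4 fell with 13.6, and 2 rose and 3 fell with 13.8. RAB18, of lipid droplets and the endoplasmic reticulum, had 41.6, 43.8 and 49.6 CPM in the controls, 20.6, 21.4 and 21.6 CPM with 13.6, and 31.1, 33.5 and 32.4 CPM with 13.8. The groups did not overlap. RAB18 fell with 13.6 (log2 -1.08 ± 0.08, adjusted p = 1.33e-07) and with 13.8 (log2 -0.48 ± 0.07, adjusted p = 0.000118), and was lower with 13.6 than with 13.8 by 0.61 ± 0.08 (adjusted p = 1.46e-05).

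RAB2A, which tethers vesicles between the endoplasmic reticulum and Golgi, moved opposite ways. Its values were 111.8, 123.5 and 131.5 CPM in the controls, 147.5, 160.6 and 164.4 CPM with 13.6, and 64.7, 69.8 and 76.0 CPM with 13.8. The groups did not overlap. It rose with 13.6 (log2 0.36 ± 0.08, adjusted p = 0.00151), fell with 13.8 (log2 -0.80 ± 0.08, adjusted p = 1.62e-06) and differed between reagents by 1.17 ± 0.08 (adjusted p = 4.46e-08). Its copy RAB2B had smaller calls of opposite sign, -0.24 ± 0.07 with 13.6 (adjusted p = 0.0111) and 0.22 ± 0.07 with 13.8 (adjusted p = 0.0139). The second was lost without control 1 (adjusted p = 0.0575) or without 13.8 replicate 3 (adjusted p = 0.0528).

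RAB6A, of transport within and from the Golgi, was at 113.8, 111.6 and 104.5 CPM in the controls, at 185.6, 185.5 and 183.7 CPM with 13.6, and at 122.2, 118.9 and 117.1 CPM with 13.8. All 13.6 libraries lay far above the rest. It rose with 13.6 by 0.75 ± 0.06 on the log2 scale (adjusted p = 1.79e-07), and the value with 13.8 was 0.12 ± 0.06 (adjusted p = 0.0813). RAB33B, of the Golgi and autophagosome formation, fell with both, by 0.33 ± 0.10 with 13.6 and by 0.66 ± 0.10 with 13.8. RAB1A rose with 13.6 (0.21 ± 0.05), as did RAB36 (0.43 ± 0.10) and RAB29 (0.21 ± 0.06), while RAB34 fell (-0.29 ± 0.09). The calls of RAB29 and RAB34 were lost without 13.6 replicate 1 (adjusted p = 0.0661 and 0.0648). RAB33A was called higher with 13.8, but on 51 reads over 3 libraries against 9 in the controls, and this call was lost without control 2 (adjusted p = 0.0638) or without 13.8 replicate 2 (adjusted p = 0.0672).

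Of the 7 early endosome RABs, 3 rose and 2 fell with 13.6, and 3 fell with 13.8. RAB21, which traffics integrins, had 19.3, 17.6 and 21.2 CPM in the controls, 44.2, 42.9 and 43.2 CPM with 13.6, and 19.2, 21.5 and 21.9 CPM with 13.8. The 13.6 libraries lay above all others, and the 13.8 libraries overlapped the controls. RAB21 rose with 13.6 to 2.24 times control (log2 1.17 ± 0.08, adjusted p = 1.25e-07), beside 0.11 ± 0.08 with 13.8 (adjusted p = 0.277), and differed between reagents by 1.06 ± 0.08 (adjusted p = 1.41e-07).

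RAB22A, of sorting and recycling from early endosomes, had the largest difference between reagents among members with a mean of at least 5 CPM. It had 37.0, 30.9 and 33.2 CPM in the controls, 50.8, 49.4 and 48.9 CPM with 13.6, and 14.9, 15.7 and 15.4 CPM with 13.8. The groups did not overlap. It rose with 13.6 (log2 0.56 ± 0.07, adjusted p = 3.41e-05) and fell with 13.8 to 0.455 of control (log2 -1.14 ± 0.08, adjusted p = 4.73e-08). The difference between reagents was 1.69 ± 0.08 (adjusted p = 1.31e-09).

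RAB31, the closest relative of RAB22A, was at 63.5, 58.4 and 61.9 CPM in the controls, at 111.5, 105.1 and 103.2 CPM with 13.6, and at 61.8, 61.6 and 60.2 CPM with 13.8. The rise with 13.6 was by 0.80 ± 0.06 (adjusted p = 1.92e-07), and with 13.8 the value was 0.00 ± 0.06 (adjusted p = 0.988). Of the 3 RAB5 genes, which drive early endosome fusion, each had its own pattern. RAB5B had 232.3, 232.6 and 215.1 CPM in the controls, 140.0, 133.7 and 141.5 CPM with 13.6, and 244.4, 225.6 and 225.5 CPM with 13.8. The 13.6 libraries lay below all others. RAB5B fell with 13.6 (log2 -0.71 ± 0.06, adjusted p = 5.95e-07), had 0.03 ± 0.06 with 13.8 (adjusted p = 0.664) and differed between the reagents by -0.74 ± 0.06 (adjusted p = 2.17e-07). RAB5A fell with 13.8 (-0.47 ± 0.06, adjusted p = 1.44e-05), beside -0.02 ± 0.06 with 13.6 (adjusted p = 0.764), a difference of 0.45 ± 0.06 (adjusted p = 1.92e-05). RAB5C passed no test, at -0.11 ± 0.08 and 0.07 ± 0.08. RAB20 fell with 13.6 (-0.58 ± 0.08) and with 13.8 (-0.24 ± 0.08, adjusted p = 0.0171), the latter lost without control 3 (adjusted p = 0.0657) or 13.8 replicate 1 (adjusted p = 0.0651).

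Of the 7 tested recycling endosome RABs, 2 rose and 3 fell with 13.6, and 3 rose and 3 fell with 13.8. RAB17, which in melanocytes takes part in melanosome release, stood at 70.2, 87.9 and 87.1 CPM in the controls, at 41.1, 39.1 and 47.3 CPM with 13.6 and at 59.1, 57.9 and 56.9 CPM with 13.8. All knockdown libraries lay below the controls. RAB17 fell with 13.6 (log2 -0.94 ± 0.09, adjusted p = 2.41e-06) and with 13.8 (log2 -0.49 ± 0.09, adjusted p = 0.000448).

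RAB15, which slows recycling from early endosomes, was at 59.9, 59.1 and 60.1 CPM in the controls, at 48.4, 46.3 and 42.9 CPM with 13.6 and at 21.5, 24.3 and 25.6 CPM with 13.8. The groups did not overlap. It fell with 13.6 (log2 -0.38 ± 0.07, adjusted p = 0.000836) and to 0.399 of control with 13.8 (log2 -1.32 ± 0.08, adjusted p = 1.23e-08), a difference between reagents of 0.94 ± 0.08 (adjusted p = 2.25e-07). RAB14, of Golgi-to-endosome traffic, had 56.3, 55.3 and 54.3 CPM in the controls, 109.8, 106.3 and 103.0 CPM with 13.6 and 85.4, 90.5 and 85.1 CPM with 13.8, again without overlap. It rose with 13.6 (log2 0.94 ± 0.06, adjusted p = 3.43e-08) and with 13.8 (log2 0.65 ± 0.06, adjusted p = 5.56e-07).

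RAB4A, of fast recycling, stood at 22.4, 22.4 and 25.6 CPM in the controls, at 21.1, 21.5 and 22.6 CPM with 13.6 and at 35.7, 38.8 and 37.8 CPM with 13.8. Only the 13.8 libraries lay apart from the controls. It rose with 13.8 by 0.67 ± 0.08 (adjusted p = 5.68e-06), beside -0.11 ± 0.08 with 13.6 (adjusted p = 0.245), and the reagents differed by -0.78 ± 0.08 (adjusted p = 1.16e-06). RAB11B, of slow recycling, rose by 0.54 ± 0.06 with either reagent (adjusted p = 1.06e-05 and 8.12e-06). Its relative RAB11A fell with 13.6 (-0.33 ± 0.07, adjusted p = 0.00242) and had -0.01 ± 0.07 with 13.8 (adjusted p = 0.939). RAB35 fell with 13.8 (-0.36 ± 0.07, adjusted p = 0.000677).

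Of the 6 tested RABs of late endosomes, lysosomes and autophagosomes, 3 rose and 1 fell with 13.6, and 1 rose and 1 fell with 13.8. RAB7A, which drives fusion with lysosomes, stood at 634.9, 654.6 and 665.3 CPM in the controls, at 767.3, 784.0 and 788.3 CPM with 13.6 and at 635.6, 616.9 and 619.8 CPM with 13.8. It rose with 13.6 by 0.26 ± 0.06 (adjusted p = 0.00168), and with 13.8 the value was -0.06 ± 0.06 (adjusted p = 0.362).

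RAB12, which acts in lysosomal degradation of a membrane receptor, had 17.6, 16.2 and 17.7 CPM in the controls, 31.99, 31.2 and 33.5 CPM with 13.6 and 18.9, 18.3 and 18.7 CPM with 13.8. The rise with 13.6 was by 0.91 ± 0.07 (adjusted p = 2.83e-07), beside 0.12 ± 0.07 with 13.8 (adjusted p = 0.176). RAB9A, of endosome-to-Golgi return and also of melanosome formation, had 23.2, 26.0 and 28.6 CPM in the controls, 33.7, 36.5 and 38.9 CPM with 13.6, and 39.6, 41.4 and 40.2 CPM with 13.8. Every knockdown library lay above the controls, and RAB9A rose with 13.6 (0.49 ± 0.08, adjusted p = 0.000309) and with 13.8 (0.64 ± 0.08, adjusted p = 2.39e-05). RAB24 fell with 13.6 (-0.25 ± 0.09, adjusted p = 0.0249), a call lost without control 3 (adjusted p = 0.0848) or 13.6 replicate 1 (adjusted p = 0.114). RAB39A was called lower with 13.8 (-0.71 ± 0.26) at about 1 CPM, and that call was lost without control 2 (adjusted p = 0.123), 13.8 replicate 1 (adjusted p = 0.092) or 13.8 replicate 2 (adjusted p = 0.0619).

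Of the 9 tested RABs of regulated and polarised secretion, 2 rose and 3 fell with 13.6, and 5 rose and 1 fell with 13.8. RAB8A, of transport to the plasma membrane and cilium, had 93.0, 91.1 and 95.1 CPM in the controls, 61.1, 64.6 and 66.8 CPM with 13.6, and 56.6, 59.3 and 54.3 CPM with 13.8. All 6 knockdown libraries lay below the controls. It fell with 13.6 (-0.54 ± 0.06, adjusted p = 8.7e-06) and with 13.8 (-0.71 ± 0.06, adjusted p = 4.36e-07). Of its close relatives, RAB10 moved the other way with both reagents and RAB8B with 13.6 only. RAB10 rose with 13.6 (0.51 ± 0.07, adjusted p = 4.03e-05) and 13.8 (0.47 ± 0.07, adjusted p = 5.7e-05), and RAB8B rose with 13.6 (0.47 ± 0.07, adjusted p = 7.84e-05) and had -0.03 ± 0.07 with 13.8 (adjusted p = 0.78).

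RAB3C and RAB3D belong to the family that readies secretory vesicles for release. RAB3C had 15.3, 17.7 and 20.7 CPM in the controls, 10.7, 11.7 and 12.8 CPM with 13.6, and 24.2, 28.7 and 29.9 CPM with 13.8, without overlap. It fell with 13.6 (-0.61 ± 0.12, adjusted p = 0.000927) and rose with 13.8 (0.62 ± 0.12, adjusted p = 0.000464), a difference of -1.23 ± 0.12 (adjusted p = 1.18e-06). RAB3D had 7.88, 7.64 and 8.19 CPM in the controls, 6.88, 8.06 and 7.06 CPM with 13.6, and 12.4, 11.6 and 11.0 CPM with 13.8. It rose with 13.8 (0.56 ± 0.10, adjusted p = 0.000287), beside -0.11 ± 0.10 with 13.6 (adjusted p = 0.398), and the reagents differed by -0.67 ± 0.10 (adjusted p = 5.53e-05). RAB26, of secretory granules, had few reads, 93 to 157 per control library and 9 to 28 per library with 13.6. Its levels were 2.01, 4.08 and 2.54 CPM in the controls, 0.679, 0.194 and 0.418 CPM with 13.6, and 5.16, 5.65 and 5.49 CPM with 13.8. The groups did not overlap. It fell with 13.6 (-2.75 ± 0.35, adjusted p = 2.91e-05) and rose with 13.8 (0.93 ± 0.26, adjusted p = 0.00866). RAB13 rose with 13.8 (0.26 ± 0.07, adjusted p = 0.00586), and its value with 13.6 was -0.16 ± 0.07 (adjusted p = 0.0608). That value passed the test without control 1 (-0.21, adjusted p = 0.0287) and with scaling by library totals (-0.20, adjusted p = 0.0194).

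Of the 2 cilium RABs, RAB23, a regulator of Hedgehog signalling, stood at 11.7, 10.8 and 11.0 CPM in the controls, at 22.9, 20.2 and 23.0 CPM with 13.6, and at 24.8, 23.0 and 22.2 CPM with 13.8. All knockdown libraries lay above the controls and the 2 knockdown groups overlapped. RAB23 rose to 1.97 times control with 13.6 (log2 0.98 ± 0.08, adjusted p = 7.15e-07) and to 2.09 times with 13.8 (log2 1.06 ± 0.08, adjusted p = 2.07e-07), and the reagents differed by -0.09 ± 0.08 (adjusted p = 0.374). RAB28 fell with 13.6 (-0.30 ± 0.09, adjusted p = 0.00941). Both tested members outside these classes rose with each reagent. RAB40B, which serves a ubiquitin ligase, rose by 0.53 ± 0.11 with 13.6 and by 1.13 ± 0.11 with 13.8. RAB40C rose by 0.31 ± 0.10 and by 0.30 ± 0.10, and these calls were lost without control 1 (adjusted p = 0.0576 with 13.6 and 0.0611 with 13.8), without 13.6 replicate 2 (0.102) or without 13.8 replicate 2 (0.0643).

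Relatives within a RAB family changed by unequal amounts. Reads of one relative were divided by those of the other in the same library, for 12 pairs that were chosen after the values were seen, with no test and no correction for length. The RAB32 to RAB38 ratio was 0.461, 0.451 and 0.514 in the controls, 0.379, 0.393 and 0.381 with 13.6, and 1.57, 1.85 and 1.82 with 13.8, so that RAB32 had the more reads with 13.8 alone. The RAB2A to RAB2B ratio was 4.17 ± 0.13 in controls (SD, n = 3), 6.34 ± 0.59 with 13.6 and 2.06 ± 0.14 with 13.8. The RAB8A to RAB8B ratio was 3.24 ± 0.07, 1.62 ± 0.16 and 2.01 ± 0.10, and the RAB11A to RAB11B ratio was 2.54 ± 0.33, 1.39 ± 0.10 and 1.73 ± 0.01. In both of these the knockdown libraries lay below the controls. The RAB5A to RAB5B ratio was 0.342 ± 0.020, 0.551 ± 0.022 and 0.241 ± 0.013, and the RAB6A to RAB6B ratio was 1.24 ± 0.12, 2.06 ± 0.02 and 1.46 ± 0.04. The RAB1A to RAB1B ratio, at 1.02 ± 0.10, 1.03 ± 0.06 and 1.16 ± 0.15, overlapped between each knockdown and the controls.

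**Figure D4:**
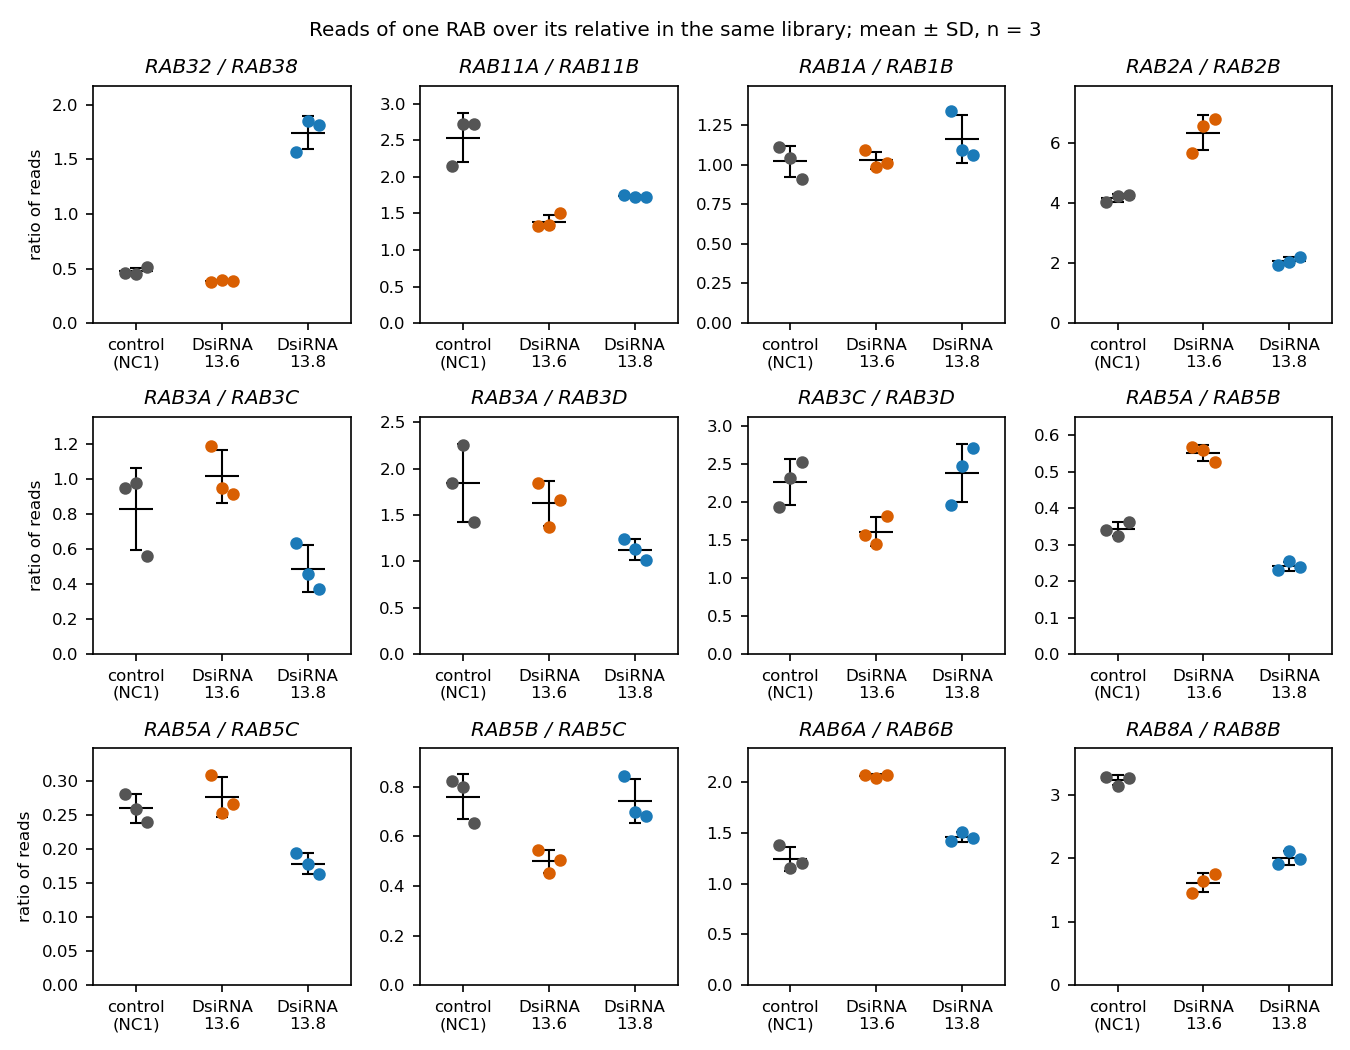
Ratio of reads (y axis, from 0) of one RAB to its relative in each library, for 12 pairs, with the mean and SD (n = 3). The RAB32 to RAB38 ratio is 1.57 to 1.85 with 13.8 and at most 0.514 in the other 6 libraries, whereas the RAB1A to RAB1B ratio overlaps between controls and either knockdown.

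Of 16 partners of RAB27, RAB32 and RAB38, 12 were tested (MYRIP, SYTL1, SYTL4 and SYTL5 were not). With 13.6, 2 rose and 4 fell, with a median log2 fold change of 0.03, and with 13.8, 3 rose and 4 fell, with a median of 0.01. Over all genes tested 24.9% rose and 25.0% fell with 13.6, and 27.5% and 27.9% with 13.8. The counts of this short list move with single libraries. With 13.6 the risers numbered 1 without control 1, 13.6 replicate 2 or 13.6 replicate 3, and the fallers 2 without 13.6 replicate 1. With 13.8 the fallers numbered 2 without 13.8 replicate 2. HPS1 and HPS4 together form the exchange factor of RAB32 and RAB38. HPS1 fell with 13.6 (-0.56 ± 0.07, adjusted p = 1.57e-05) and had 0.14 ± 0.07 with 13.8 (adjusted p = 0.0839), while HPS4 fell with 13.8 (-1.09 ± 0.09, adjusted p = 3.2e-07) and had 0.06 ± 0.09 with 13.6 (adjusted p = 0.604). The 2 subunits differed between reagents in opposite directions, HPS1 by -0.71 ± 0.07 and HPS4 by 1.15 ± 0.09 (adjusted p = 1.13e-06 and 1.71e-07).

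SGSM2, a GTPase-activating protein of RAB32 and RAB38, fell with 13.6 (-0.48 ± 0.08, adjusted p = 0.000169) and rose with 13.8 (0.56 ± 0.08, adjusted p = 2.92e-05). SYTL2, an effector that docks RAB27A vesicles, fell with 13.8 (-0.44 ± 0.07, adjusted p = 9.44e-05). Of the RAB27A motor complex, melanophilin (MLPH) had 0.00 ± 0.11 with 13.6 (adjusted p = 0.993) and rose with 13.8 (0.36 ± 0.11, adjusted p = 0.0126), a call lost without 13.8 replicate 1 (adjusted p = 0.0509). Myosin Va (MYO5A) passed neither test, at 0.05 ± 0.08 and -0.13 ± 0.08 (adjusted p = 0.635 and 0.212).

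**Figure D5:**
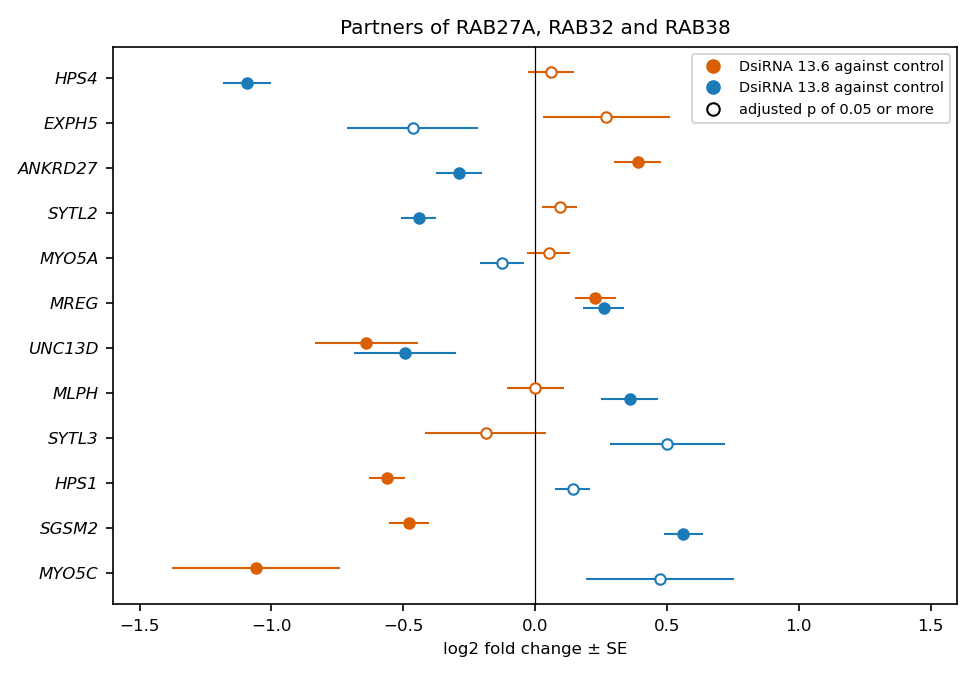
Log2 fold change against control (x axis, ± SE from the edgeR fit) of the 12 tested partners of RAB27A, RAB32 and RAB38, 13.6 in orange and 13.8 in blue, filled where the adjusted p is under 0.05. HPS4 is called lower with 13.8 and HPS1 with 13.6, and SGSM2 is filled on opposite sides of 0.

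Among 8 factors that prenylate or recycle RABs, 3 rose and 2 fell with 13.6, and 3 rose and 1 fell with 13.8, with medians of -0.01 and 0.14, beside 24.9% and 25.0% of all genes with 13.6 and 27.5% and 27.9% with 13.8. Without 13.6 replicate 1 or 13.6 replicate 3 the first of these counts was 1, without 13.6 replicate 3 the second was 1, and without control 1 or 13.8 replicate 2 the last was 0. RABAC1, which binds prenylated RABs, rose with 13.8 (0.85 ± 0.15, adjusted p = 0.000428). RABGGTB, the catalytic subunit of the prenyl transferase, rose with 13.6 (0.24 ± 0.06) and 13.8 (0.22 ± 0.06).

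Of 49 tested exchange factor genes, 6 rose and 18 fell with 13.6 and 8 rose and 18 fell with 13.8, beside medians of -0.12 and -0.05. Over all genes tested the shares were 24.9% and 25.0% with 13.6 and 27.5% and 27.9% with 13.8. For the mean of both reagents against control 3 rose and 21 fell, beside 23.3% and 26.9% of all genes. DENND5B fell with 13.6 (-0.85 ± 0.09, adjusted p = 3.32e-06) and with 13.8 (-0.43 ± 0.09, adjusted p = 0.000782). RGP1, part of the RAB6 exchange complex, fell with 13.6 (-0.50 ± 0.10, adjusted p = 0.0009) and 13.8 (-0.96 ± 0.10, adjusted p = 2.74e-06). The other subunit of that complex, KIAA1432 (RIC1), rose with 13.6 (0.411 ± 0.077, adjusted p = 0.000603) and 13.8 (0.555 ± 0.076, adjusted p = 3.9e-05). MADD, which acts on RAB3 and RAB27, fell with 13.8 (-0.65 ± 0.09, adjusted p = 3.78e-05). GAPVD1, which acts on RAB5, fell with 13.8 (-0.97 ± 0.09, adjusted p = 1.5e-06) and rose with 13.6 (0.26 ± 0.09, adjusted p = 0.0288). The rise was lost without control 3 (adjusted p = 0.0864), 13.6 replicate 1 (0.104) or 13.6 replicate 3 (0.0756), and with scaling by library totals (0.071).

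Of 35 tested GTPase-activating proteins, 11 rose and 10 fell with 13.6 and 12 rose and 8 fell with 13.8, with medians of -0.01 and 0.13, beside the same shares of all genes (24.9% and 25.0%, then 27.5% and 27.9%). TBC1D7, better known as a subunit of the TSC complex, rose with 13.6 (1.05 ± 0.06, adjusted p = 1.78e-08) and 13.8 (0.74 ± 0.06, adjusted p = 2.01e-07). TBC1D9 rose with 13.6 (0.71 ± 0.08, adjusted p = 6.05e-06) and fell with 13.8 (-1.32 ± 0.08, adjusted p = 2.48e-08), and EVI5L fell with 13.6 (-0.99 ± 0.09, adjusted p = 1e-06) and rose with 13.8 (0.44 ± 0.08, adjusted p = 0.000616). The difference between reagents was 2.03 ± 0.08 for TBC1D9 and -1.43 ± 0.09 for EVI5L.

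Of 39 tested effectors, 10 rose and 14 fell with 13.6, and 12 rose and 10 fell with 13.8, with medians of -0.02 and -0.01. The shares over all genes were 24.9% and 25.0% with 13.6 and 27.5% and 27.9% with 13.8. The 10 risers with 13.6 became 6 without 13.6 replicate 1 or 13.6 replicate 3, and the 10 fallers with 13.8 became 6 without control 1 or 13.8 replicate 3. OCRL, an endosomal lipid phosphatase, fell with 13.6 (-1.26 ± 0.08, adjusted p = 7.79e-08) and with 13.8 (-0.42 ± 0.08, adjusted p = 0.000613). MICAL1, which oxidises actin, fell with both (-0.82 ± 0.06 and -0.51 ± 0.05), and APPL1, a RAB5 effector, rose with both (0.87 ± 0.08 and 0.54 ± 0.08). RILP, which links RAB7A to dynein, had the largest difference between reagents among the effectors named by the rule (-2.83 ± 0.22, adjusted p = 1.56e-07), with a fall of 2.28 ± 0.22 with 13.6 (adjusted p = 2.34e-06) and a rise of 0.55 ± 0.18 with 13.8 (adjusted p = 0.0213). The rise was lost without control 1 (adjusted p = 0.0874), control 2 (0.0838) or 13.8 replicate 3 (0.118).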

How the data were processed

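Total RNA of 9 libraries was sequenced after a kit that keeps strand, per the labels' protocols. The authors deposited raw counts of reads per gene symbol. The build was hg19 and the tools were STAR, HTSeq, cutadapt, FastQC and DESeq2, per the submitters' processing notes; versions, annotation and strand setting are not given in the sources used. The authors' normalized table was not used.

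Of 25398 entries, 16 repeats with the same counts were left out, and 28 entries with dates for names (0.2% of the reads) stayed in the totals. In R 4.3.3, edgeR 4.0.16 kept 14731 genes by filterByExpr (99.97% of the reads), scaled by TMM and fitted 1 mean per group with 6 residual degrees of freedom, in a robust quasi-likelihood model. Tests were two-sided with Benjamini-Hochberg adjustment, and were tested on simulated data. The labels call the samples biological replicates without naming separate cultures, so p-values measure only the spread between these samples. Same-numbered libraries of different groups had deviations that correlated at -0.179 to 0.187, and differently numbered ones at -0.248 to 0.187. These ranges overlap, which does not exclude a pairing. Across groups, replicates 1 correlated with each other at 0.07 to 0.187, replicates 3 at 0.019 to 0.166 and replicates 2 at -0.179 to 0.089. Replicates 1 and 3 of different groups correlated at -0.248 to -0.023. The main fit did not pair libraries by number, and a replicate block was fitted as an alternative. Exon lengths are unions of protein-coding transcripts in GENCODE v29; promoters are RefSeq's, of which 48 members matched.

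Per-library values are printed for RAB27A, RAB32, RAB38 and, per comparison, up to 6 risers and 6 fallers that were called and averaged 5 CPM or more. Those of RAB7A and RAB26 were added, the latter with a mean of 2.91 CPM over the libraries. Genes of each list were drawn from the 4 with the smallest adjusted p, save MLPH and MYO5A, named as parts of the RAB27A motor complex. A gene that this rule names is not reported here. Members and lists were chosen with earlier results of these data known. DESeq2 1.42.0, limma 3.58.1, other scalings and filters, a replicate block and the loss of each library were the 16 alternatives per comparison.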

Additional observations from a re-analysis of the deposited data

Results flagged for a closer look

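For 5 members the reagents gave called changes of opposite sign against the shared controls, and the test of 13.6 against 13.8 was itself past the threshold (edgeR quasi-likelihood test, adjusted p under 0.05). Of all 14731 genes tested, 9.01% showed the same, so 5 of 50 is near the general rate. The log2 difference of 13.6 from 13.8 was 1.69 for RAB22A and 1.17 for RAB2A, which were higher with 13.6. It was -3.68 for RAB26, -1.23 for RAB3C and -0.45 for RAB2B, which were lower with 13.6. RAB26 has few reads, and the RAB2B call with 13.8 depended on single libraries.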

How the results depend on the processing

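The counts of called members stayed within 1.5 times of those reported in each of the 16 alternatives. With the replicate block they were 19 higher and 17 lower with 13.6, 14 and 14 with 13.8, and 20 and 17 for 13.6 against 13.8. The calls it added against control were RAB13 (adjusted p = 0.024) and RAB1B (0.0194) with 13.6 and RAB24 (0.0405) with 13.8. Over all genes the block gave 4007 higher and 4003 lower with 13.6, in place of 3668 and 3689. With 13.8 it gave 4392 and 4411, in place of 4053 and 4116. Leaving out single libraries gave 17 to 19 higher and 14 to 17 lower with 13.6, and 12 to 14 higher and 11 to 14 lower with 13.8, among the 50 tested members; without 13.8 replicate 1 a member otherwise under the filter brought the 14 to 15. Named members kept their direction except at values that passed no test: leaving out single libraries gave RAB27A with 13.6 a log2 fold change of -0.045 to 0.013, and RAB32 with 13.8 one of -0.053 to 0.155; the cause was not tested. Scaling by library totals moved the median of all genes by -0.04 on the log2 scale with 13.6, and the share of calls that were higher from 49.9% to 44.4%. It also gave 1 higher gene with 13.6 in the prenylation list and in the partner list, 6 in the effector list, and 7 higher effectors for 13.6 against 13.8 (in place of 3, 2, 10 and 11). Without 13.6 replicate 1, 13.6 replicate 3 or 13.8 replicate 2 the last was also 7. For the mean of both reagents against control, the higher partners were 1, and 2 with the replicate block or 0 without control 1, and the higher exchange factors 3, or 5 without 13.6 replicate 1. Few reads limit the precision for RAB26, RAB33A and RAB39A.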
